A study of Mus musculus with 28 samples.

Results

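The genes described here are 10 genes of skeletal muscle, Myod1, Myog, Acta1, Actc1, Myh3, Myh8, Ttn, Ckm, Des and Tnnt3, followed tooth by tooth in the developing mouse molar. They were taken by name from the 52636 genes of the count table, as a gauge of tissue dissected together with the tooth germ. The table held single first molar tooth germs of C57BL/6JOlaHsd embryos with no genetic change or treatment, at E13 (bud stage, labelled E13.5), E14 (cap stage, labelled E14.5) and E16 (bell stage, labelled E16.5), with 7 teeth per stage. Each germ was an individual library, dissected with as little of its surroundings as possible, and a few embryos gave both a left and a right tooth, so that the 7 teeth came from 7 embryos at E13, 6 at E14 and 5 at E16. Embryo numbers start again at each stage. A second table held E13, E15 and E16 teeth quantified in another way, and is used below for E15. Its E15 teeth are labelled by age as E15. The strain is taken from the paper, which describes no E15 mouse molars.

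Skeletal muscle forms from myoblasts in which the transcription factors Myod1 and Myog switch on the genes of the contractile apparatus. Thick filaments are built from myosin heavy chains, of which embryonic muscle first makes Myh3 and then Myh8, and thin filaments from actin with the troponin complex that makes contraction depend on calcium. Titin (Ttn) spans the sarcomere from Z-disc to M-band, desmin (Des) links neighbouring myofibrils, and muscle creatine kinase (Ckm) buffers the energy supply of maturing fibres. The molar itself is made from dental epithelium and mesenchyme, and the muscles of the jaw and tongue develop near to it. In a bulk library more muscle cells and more RNA per muscle cell cannot be told apart.

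The libraries held between 17814073 and 27115729 counts over all genes, with a median of 23827447. Levels are given as counts-per-million (CPM), with library sizes scaled by the trimmed mean of M-values. Markers of dental mesenchyme were detected in every tooth. The summed CPM of 8 dental mesenchyme genes such as Prrx1 and Msx1 ran from 2991 to 3216 at E13. It ran from 2636 to 3029 at E14 and from 1026 to 1929 at E16. The 10 muscle genes were low beside these in summed CPM, which takes no account of gene length. They took between 0.00273% and 0.0210% of all counts in 20 of the 21 teeth, and 0.130% in the left tooth of embryo 7 at E13 (E13 replicate 5), which stood apart for muscle genes at E13. Stage comparisons of the 10 genes that use E13 are therefore given with and without that tooth. The next highest tooth of E13 was the right tooth of embryo 9 (E13 replicate 6), and the highest of E16 was the right tooth of embryo 6 (E16 replicate 3). Averaged over all tested genes, E13 replicate 5 was no further from its stage than other E13 teeth. Its root mean square deviation from the stage mean was 0.376 on the log2 scale, within the 0.305 to 0.555 of the other E13 teeth. Such an average hardly registers the 44 of 19090 genes that reached at least 4 times the median of the other E13 teeth, described below.

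Promoter sequences are shown for 4 of the genes because they carry the letters that muscle regulators are known to read. The sequences are from RefSeq (GRCm38.p6) and run from 250 bases before to 50 bases after the transcription start site, 5′ to 3′ on the strand of the gene. Of the 10 genes, 8 were matched, and Myod1 and Tnnt3 were not. Capitals mark E-boxes (CANNTG, the motif of Myod1 and Myog) in Myog, at chr1:134289754-134290053 on the plus strand. They mark CArG boxes, the motif of serum response factor, in Acta1 (chr8:123894726-123895025, minus strand) and Actc1 (chr2:114052826-114053125, minus strand), and the MEF2 box in Ttn (chr2:76982498-76982797, minus strand).
Myog: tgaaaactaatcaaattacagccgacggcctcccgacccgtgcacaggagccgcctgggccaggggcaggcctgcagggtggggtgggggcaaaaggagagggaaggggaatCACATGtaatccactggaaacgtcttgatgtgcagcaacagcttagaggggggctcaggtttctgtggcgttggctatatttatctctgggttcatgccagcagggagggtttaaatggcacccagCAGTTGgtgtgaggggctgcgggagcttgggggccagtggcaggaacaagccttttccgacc
Acta1: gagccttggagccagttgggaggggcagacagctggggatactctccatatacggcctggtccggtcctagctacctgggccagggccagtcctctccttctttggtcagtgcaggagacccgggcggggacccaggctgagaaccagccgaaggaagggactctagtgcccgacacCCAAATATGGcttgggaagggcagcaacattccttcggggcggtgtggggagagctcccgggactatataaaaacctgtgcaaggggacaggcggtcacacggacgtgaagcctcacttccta
Actc1: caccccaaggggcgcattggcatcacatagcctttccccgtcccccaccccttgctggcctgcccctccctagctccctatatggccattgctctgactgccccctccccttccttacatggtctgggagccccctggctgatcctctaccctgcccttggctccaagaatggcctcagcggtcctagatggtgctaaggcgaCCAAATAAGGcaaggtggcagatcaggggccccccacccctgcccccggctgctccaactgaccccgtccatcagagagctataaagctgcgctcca
Ttn: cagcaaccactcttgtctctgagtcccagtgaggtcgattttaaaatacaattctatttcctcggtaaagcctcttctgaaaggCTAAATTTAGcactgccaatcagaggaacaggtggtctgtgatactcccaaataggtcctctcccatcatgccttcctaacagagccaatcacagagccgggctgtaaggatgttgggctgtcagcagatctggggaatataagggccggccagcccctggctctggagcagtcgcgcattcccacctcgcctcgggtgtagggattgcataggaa
The E-boxes of Myog began at positions -138 and -12 from the start site, the CArG boxes of Acta1 and Actc1 at -73 and -47, and the MEF2 box of Ttn at -166. On both strands, CANNTG was found in 8 of the 8 promoters, but also in 72.3% of all 32544 promoters of this length. Its form CAGCTG, a subset of the CANNTG matches, was in 3 of 8 (Acta1, Ckm and Des) against 16.4% of all promoters. The CArG box was in 2 of 8 against 1.64%, and the MEF2 box was in 2 of 8 (Ttn and Myh8) against 3.16%. The letters TATAAA were in 4 of 8 against 13.6%. A match is a description of the letters and not of binding.

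The regulators were at low levels in all stages. Myod1, which commits cells to the muscle lineage, ranged at E13 from 0.886 to 12.98 CPM with a median of 1.47. At E14 it ranged from 0.0432 to 3.05 CPM with a median of 0.986, and at E16 from 0 to 0.517 CPM with a median of 0.189. All 7 E13 teeth were above all 7 E16 teeth, while E14 overlapped with both. Myog, which drives the differentiation of myoblasts, ranged from 0.140 to 16.2 CPM at E13, from 0.164 to 1.02 CPM at E14 and from 0 to 0.501 CPM at E16, with medians of 1.21, 0.458 and 0.218. Its stages overlapped, since E13 replicate 4 was as low as the E16 teeth. For both regulators the highest of all teeth was E13 replicate 5, and the second highest E13 replicate 6 (4.93 CPM for Myod1 and 5.69 CPM for Myog).

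The myosin heavy chains had the widest spread. Myh3, the embryonic chain, was at 0.531 CPM in the lowest E13 tooth, at 2.47 in the median tooth and at 139.5 CPM (3407 counts) in E13 replicate 5. The E14 teeth lay close together, between 3.33 and 7.80 CPM with a median of 4.54. At E16 the gene went from 0 counts in replicate 5 (right tooth of embryo 7) to 30.8 CPM in replicate 3, with a median of 1.92 CPM. Myh8, the perinatal chain, followed the same teeth. It ranged from 0 to 41.6 CPM at E13 (median 0.693), from 1.08 to 2.92 CPM at E14 (median 1.71) and from 0.204 to 12.9 CPM at E16 (median 0.848). The highest E13 and E16 teeth were well clear of their stages for both chains, and the 3 stages overlapped.

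The actins gave a similar order of teeth. Acta1, the skeletal alpha actin of mature fibres, ranged from 0.0483 to 17.4 CPM at E13, from 0.259 to 1.89 CPM at E14 and from 0.0531 to 4.95 CPM at E16, with medians of 0.553, 0.923 and 0.450. Actc1, the cardiac alpha actin that embryonic skeletal muscle also makes, ranged from 1.64 to 61.6 CPM at E13, from 1.08 to 4.46 CPM at E14 and from 0.368 to 4.39 CPM at E16, with medians of 3.36, 2.73 and 0.971. Of the 7 E16 teeth, 6 had less Actc1 (at most 1.73 CPM) than any but 1 of the E14 teeth, which had 1.08 CPM. The tooth that broke this order was again E16 replicate 3.

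Ttn, with 116825 bases of exons, was the highest of the genes in CPM. It ranged from 29.3 to 953.6 CPM at E13 (median 31.2), from 25.2 to 55.9 CPM at E14 (median 33.3) and from 24.2 to 102.8 CPM at E16 (median 38.6). The lowest tooth of each stage thus still had 24.2 CPM or more. This floor in CPM held also where some of the other genes were at or near 0. E16 replicate 5 had 0 counts of Myod1, Myog and Myh3 and 1 count of Acta1, and 558 counts of Ttn. A gene with more exon bases collects more counts. Per kilobase of exon, Ttn was at 0.254 CPM in that tooth, beside 0.311 for Des, 0.268 for Tnnt3 and 0.230 for Actc1. Des, which smooth muscle cells make as well, also had counts in every tooth. It ranged from 1.43 to 19.4 CPM at E13, from 1.07 to 7.35 CPM at E14 and from 0.707 to 3.19 CPM at E16, with medians of 3.27, 2.21 and 1.70, and the lowest count in any tooth was 15.

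Tnnt3, the fast fibre troponin T, kept another order of teeth. It ranged from 0.579 to 4.79 CPM at E13, from 0.0782 to 2.08 CPM at E14 and from 0.425 to 3.40 CPM at E16, with medians of 1.12, 0.881 and 1.05. Here E13 replicate 6, second for most of the other genes, was with 0.679 CPM the second lowest tooth of its stage, and E14 replicate 3, the highest E14 tooth for Myod1, Des and Ttn, was the lowest. Ckm, the creatine kinase of maturing fibres, was nearly absent. It had 0 counts in 11 of the 21 teeth and at most 7 counts in 20 of them, and reached 37 counts (1.37 CPM) in E16 replicate 3. In E13 replicate 5, where Myh3 had 3407 counts, Ckm had 3.

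**Figure D1:**
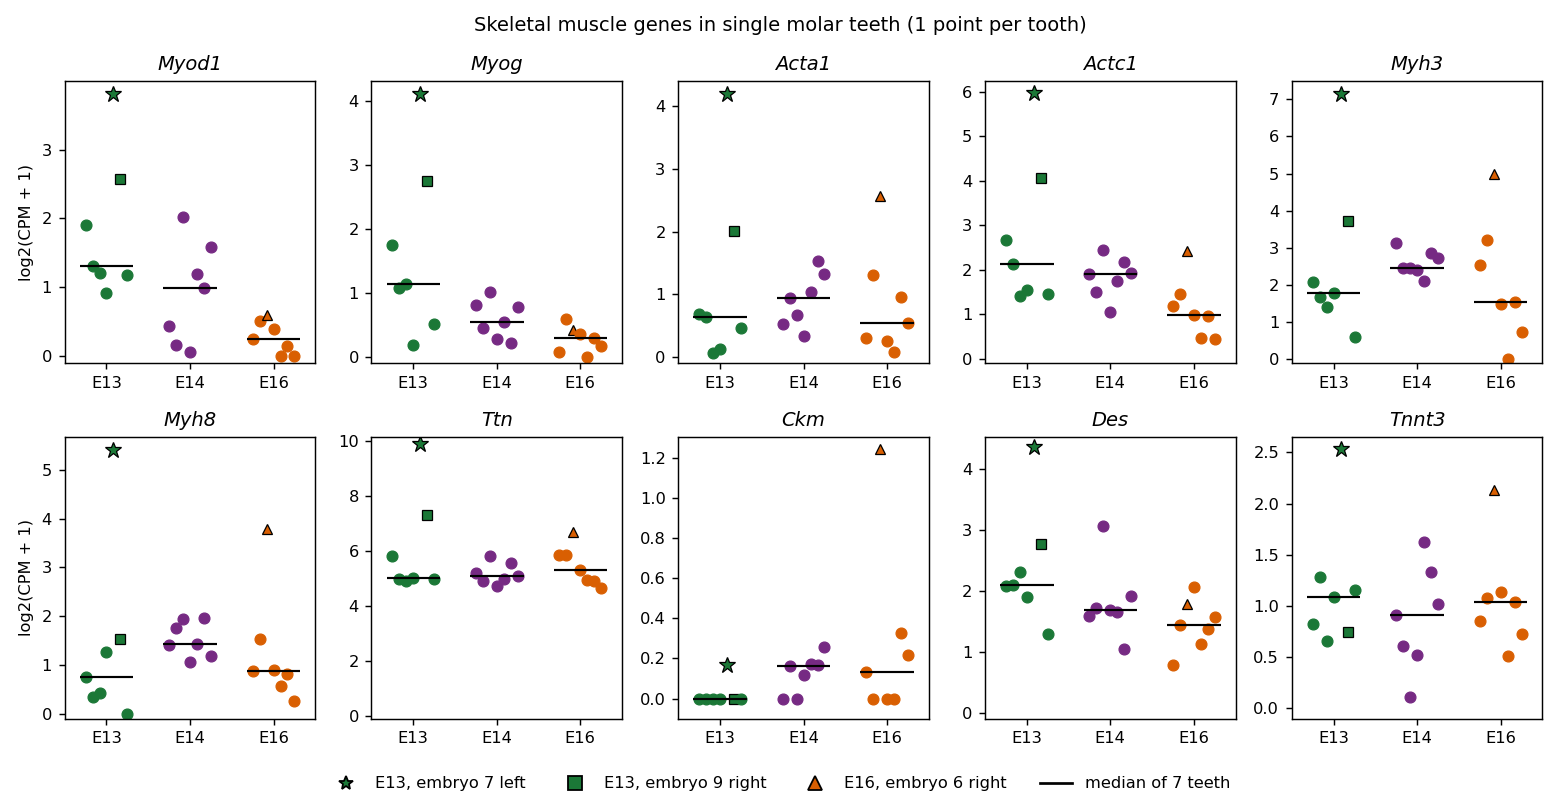
Level of each of the 10 genes as log2(CPM + 1) in each of 21 teeth, by stage, with the stage median as a line. E13 replicate 5 (star) is the highest E13 tooth for every gene, and E16 replicate 3 (triangle) the highest E16 tooth for Acta1, Actc1, Myh3, Myh8, Ttn, Ckm, Tnnt3 and Myod1, but not for Myog or Des.

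Levels of different genes can be compared only per length. At E14, the stage without a tooth that stood apart across the genes, the mean CPM per kilobase of exon over 7 teeth was highest for Actc1 (1.65 ± 0.677, SD), followed by Myh3 (0.860 ± 0.247), Des (0.752 ± 0.548), Acta1 (0.617 ± 0.381), Myod1 (0.602 ± 0.593), Tnnt3 (0.590 ± 0.433), Myog (0.351 ± 0.208), Ttn (0.313 ± 0.0918), Myh8 (0.168 ± 0.0629) and Ckm (0.0320 ± 0.0246). From Myh3 down to Ttn, neighbours in this order differed by less than the larger of their SDs. Actc1 and Myh3, Ttn and Myh8, and Myh8 and Ckm differed by more. The exon length covers all annotated exons of a gene, and for Myh8 it is 11772 bases where its longest coding transcript has 6149. The gap between Ttn and Myh8 therefore depends on the length used. At E13 the order of the means was led by Actc1 (8.07 ± 13.6) and Myh3 (3.82 ± 8.496), with SDs larger than the means, E13 replicate 5 included.

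The sum of the 10 genes set the teeth in order. E13 replicate 5 had 1267 CPM, which was 29.3 times the median of the other 6 E13 teeth. E13 replicate 6 had 208 CPM and E16 replicate 3 had 164 CPM, the latter 3.89 times the median of the other E16 teeth. The remaining 18 teeth of the 3 stages were between 28.8 and 79.8 CPM. Since Ttn made up most of each sum, the sum was also taken without Ttn, Des and Actc1. E13 replicate 5 then had 232.5 CPM against 3.82 to 28.5 CPM in the other E13 teeth, and E16 replicate 3 had 54.3 CPM against 0.955 to 13.6 CPM. Without these 3 genes the E14 teeth stayed within 6.40 and 13.9 CPM.

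In E13 replicate 5 many muscle genes were high, but not all. Of the 9 genes that passed the filter on low counts, 8 were at least 4 times the median of the other 6 E13 teeth (0.5 CPM added to each value), with Myh3 at 49.3 times, Myh8 at 41.5 and Ttn at 30.3, where 0.23% of all genes (44 of 19090) reached this fold. The exception, Tnnt3, had 4.79 CPM against at most 1.43 CPM in the other E13 teeth. A wider list of 103 muscle genes, of which 57 were tested, gave 24 more of the 44 genes. Among these were Myl1 (myosin light chain, 16.46 CPM against at most 1.87 in the other E13 teeth), Neb (nebulin, the ruler of the thin filament, 130.2 against at most 26.6), Actn2 (alpha-actinin of the Z-disc, 29.2 against at most 3.65), the slow troponins Tnni1 (9.78 against at most 1.57) and Tnnt1 (22.9 against at most 6.03), and the slow myosin Myh7 (13.02 against at most 1.59). The calcium pump Atp2a1 had 14.1 CPM against at most 3.99, and Pax7, the factor of muscle progenitors, 6.88 against at most 2.42. The other 12 genes were on neither of these lists. They are named after their values were seen and were Gm28653, Capn11, Klhl31, Alpk3, Rbm24, Vgll2, Ablim3, Hand2, Fgfr4, Thbs4, Myo18b and Rxrg. Thbs4, a gene of tendon, was on the list of tendon markers.

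The parts of the wider list did not rise alike in that tooth. The summed CPM of 7 troponins was 9.68 times the median of the other E13 teeth, that of 8 genes of the neuromuscular junction 6.28 times, and that of 19 Z-disc and M-band genes 3.76 times. The 17 genes of excitation and calcium release gave 1.75 times, the 10 genes of muscle energy metabolism 1.86 times and the 11 myogenic regulators 1.41 times. Such sums follow their most abundant genes and do not rank the groups. Mef2c had 161.6 CPM of the regulator sum, at 1.18 times the median of the others, while Pax7 was at 6.85 times, Cdh15 at 6.32, Msc at 2.88 and Pax3 at 2.77. Among the excitation genes, Casq2 was at 9.28 times, Cacna1s at 9.22 and Atp2a1 at 7.22, while Jph1 (0.924 times) and Ryr3 (0.811 times) were not higher. The sum of the 26 myosin and actin filament genes, 1.49 times, was dominated by the tropomyosins Tpm1, Tpm2 and Tpm3, which the molar expressed at all stages (Tpm1 at 335 ± 22.3 CPM at E13, SD, n = 7). Muscle membrane genes were at 1.11 times, with Dmd at 35.5 CPM against 28.6 to 37.3 CPM in the other teeth.

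Markers of other tissues were taken in the same way. In E13 replicate 5 the sums of smooth muscle (1.15 times the median of the others, 10 genes), tendon (1.08 times, 7 genes) and nerve (1.21 times, 10 genes) were the highest of the stage, at 188.5 against 143.6 to 167.5 CPM, 128.6 against 99.8 to 126.9 CPM and 101.7 against 69.5 to 86.7 CPM. The sums of heart (0.975 times, 8 genes), cartilage (1.09 times, 10 genes), endothelium (1.03 times, 7 genes) and bone (1.82 times, 8 genes) were within the range of the other E13 teeth, and that of macrophages (0.839 times, 7 genes) was below it. Single genes of these lists above all other E13 teeth, chosen after their values were seen, included Acta2, the smooth muscle actin (38.4 CPM against 12.3 to 19.6), and Thbs4 (14.4 CPM against 1.31 to 6.11). Of the 8 heart markers 6 had 0 counts in this tooth. The dental mesenchyme sum was the lowest of its stage at 2991 CPM against 3078 to 3216. The part of any of these in the muscle values was not tested.

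**Figure D2:**
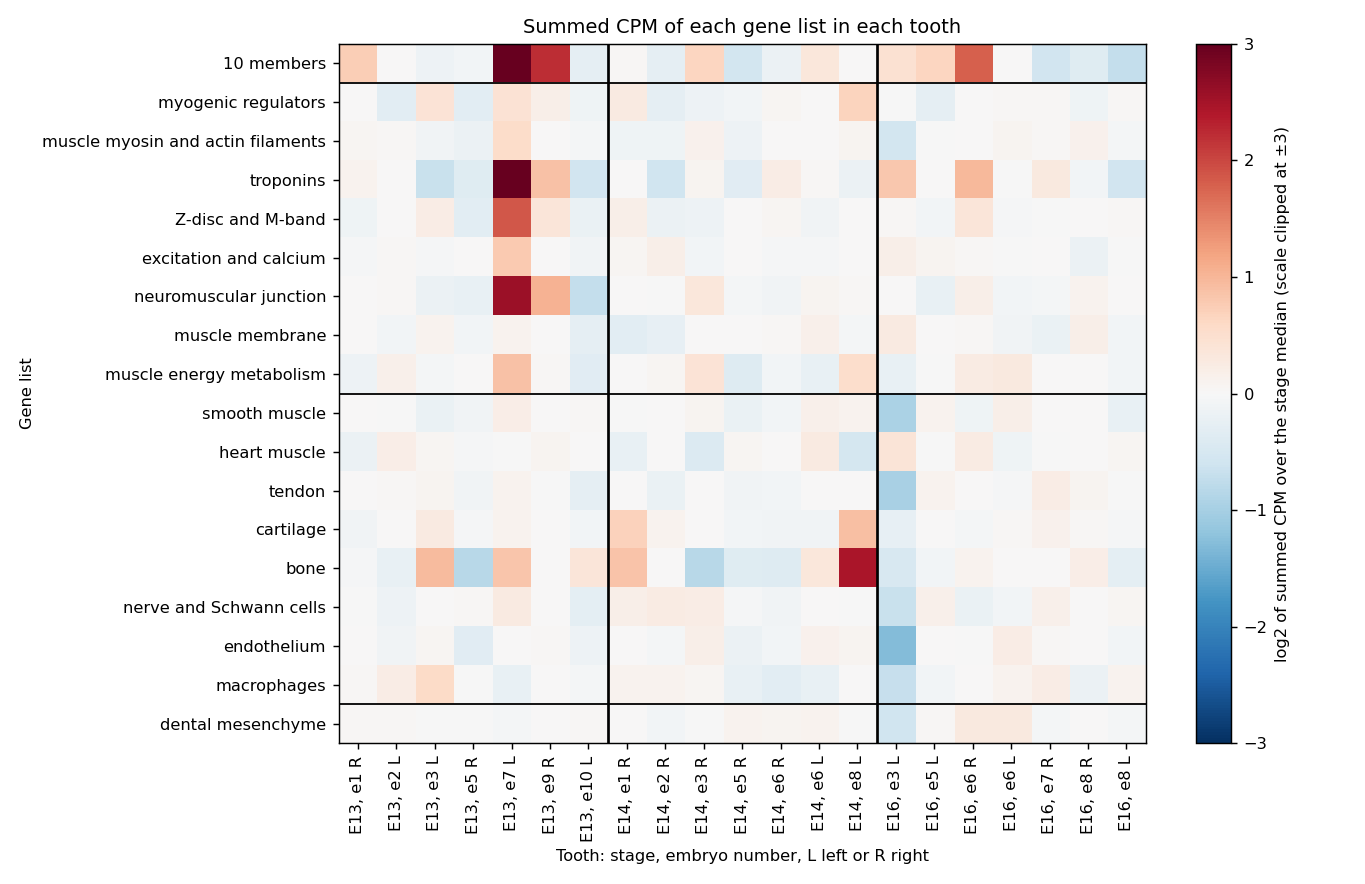
Summed CPM of each gene list (rows) in each tooth (columns: stage, embryo number and side), as log2 of the ratio to the median of its stage, with colours clipped at ±3. E13 replicate 5 (E13, e7 L) stands out for the 10 genes, troponins, Z-disc and M-band and the neuromuscular junction, while its tendon, cartilage, endothelium and dental mesenchyme rows are close to the stage median.

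E13 replicate 6 was a weaker case. Actc1 (15.8 CPM), Ttn (157.6 CPM) and Myh3 (12.3 CPM) were at least 4 times the median of the other 6 E13 teeth, and they were the only 3 of all 19090 genes to reach this fold (0.0157%). No gene of the wider list did so, with Myl1 nearest at 2.93 times and Neb at 2.89 times. In E16 replicate 3, the 3 muscle genes at this fold were Myh3 (13.2 times), Myh8 (10.3 times) and Acta1 (6.47 times), out of 5 genes in all (0.0262%). The other 2, named after their values were seen, were Gm23547 (20.9 CPM against at most 12.5) and Dpt (7.42 against at most 1.68). Of the wider list, 23 of 57 genes were higher in this tooth than in the other 6 E16 teeth, where 2584 of 19090 genes were in all. They included Actn2 (3.88 CPM against at most 1.46), Myl1 (2.18 against at most 0.944), Neb (17.8 against at most 9.80) and Pgam2 (1.88 against at most 0.871), a muscle phosphoglycerate mutase. The sums of smooth muscle (190.3 CPM against 108.1 to 233.8), tendon (291.9 against 149.1 to 341.1), bone (180.1 against 120.5 to 193.6) and dental mesenchyme (1923 against 1026 to 1929) were within the range of the other E16 teeth.

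The teeth of 1 embryo did not share their level of muscle genes. The left tooth of the embryo that gave E16 replicate 3 had 1.83 CPM of Myh3 against 30.8 in the right, 0.855 of Myh8 against 12.9, 0.194 of Acta1 against 4.95, and 0 counts of Ckm against 37. The regulators differed little between these teeth, with 8 and 14 counts of Myod1 and 7 and 9 counts of Myog. Des went the other way, at 3.19 CPM in the left and 2.44 CPM in the right tooth. The other E16 pair (embryo 8) differed by at most 3.73 times where both teeth had counts, the right tooth being higher for Myh8 (0.762 against 0.204 CPM), and the E14 pair (embryo 6) by at most 2.79 times, the right tooth being higher for Myog (0.458 against 0.164 CPM) on 11 and 4 counts. In that E14 pair Myod1, Des and Tnnt3 were also higher in the right tooth. Acta1, Actc1, Myh3 (154 against 80 counts), Myh8 and Ttn (1118 against 742 counts) were higher in the left tooth.

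Myh3 and Myh8 lie in 1 cluster of skeletal myosin heavy chain genes on chromosome 11 (GRCm38), with Myh3 at 67078300 to 67102291, Myh8 at 67277124 to 67308634 and the adult fast chains Myh2, Myh1 and Myh4 between them. The cluster did not rise together. The values per kilobase of Myh8 divide by 11772 bases of exons, more than the 6149 of its longest coding transcript, and are low for that reason beside those of Myh3 (6057 and 6031 bases). In E13 replicate 5, Myh3 had 23.0 CPM per kilobase of exon and Myh8 had 3.53, while Myh1 had 0.161, Myh2 had 0.0516, Myh4 had 0.0204 and Myh13, the chain of eye muscles, had 0.0397. In counts, Myh1 was with 25 above its highest value in the 19 teeth other than this and E16 replicate 3 (12 counts), but Myh2 (9 counts), Myh4 (3 counts) and Myh13 (6 counts) were within theirs. In E16 replicate 3, Myh3 had 5.09 CPM per kilobase and Myh8 had 1.09, while Myh1 and Myh4 had 0 counts. Myh2 had 44 counts there against at most 41 in the 19 teeth, and Myh13 had 22, equal to their highest. Reads could be split among these genes only in part. Of the 84-base windows of the longest Myh8 transcript 10.1% occur also in Myh1, Myh2, Myh4 or Myh13, and of those of Myh3 1.46%.

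**Figure D3:**
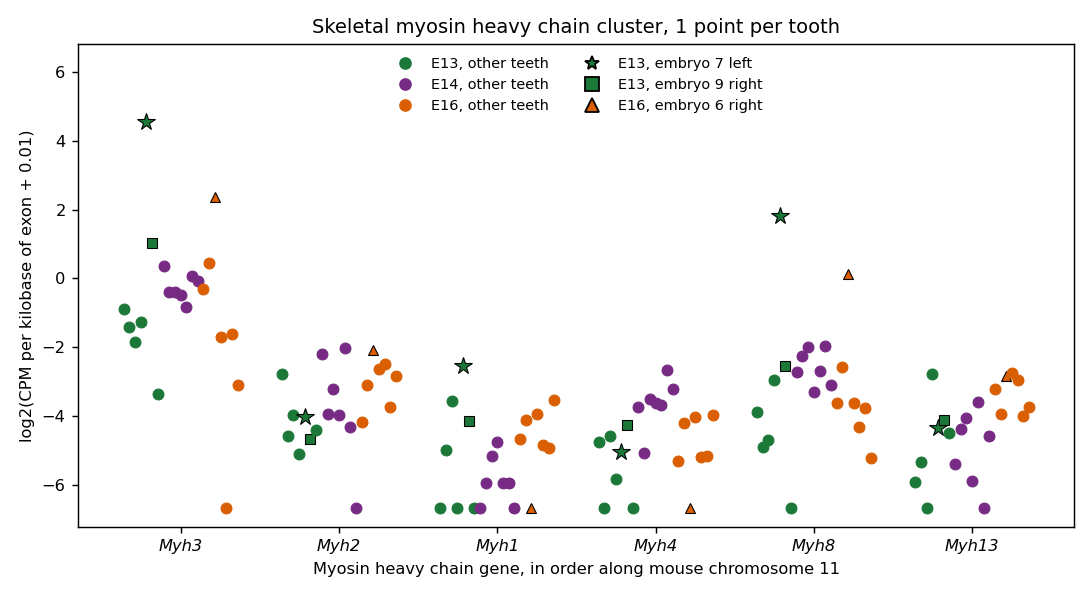
CPM per kilobase of exon, as log2 with 0.01 added, of the 6 myosin heavy chain genes of the chromosome 11 cluster in 21 teeth. Only Myh3 and Myh8 have E13 replicate 5 (star) and E16 replicate 3 (triangle) far above the other teeth, and points on the lowest line are teeth with 0 counts.

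The regulators and the filament genes were set against each other in each tooth. Myod1 and Myog together had 29.1 CPM in E13 replicate 5 and 10.6 CPM in E13 replicate 6, but 0.849 CPM in E16 replicate 3, within the 0 to 0.925 CPM of its stage. The filament genes Myh3, Myh8, Acta1 and Actc1 together had 260 CPM, 33.0 CPM and 53.1 CPM in the same teeth. The ratio of filament to regulator CPM was 1.46 to 8.92 at E13 with a median of 2.48. At E14 it was 3.06 to 25.8 with a median of 11.5. At E16 it was 6.60 to 62.5 in the 6 teeth with any count of a regulator, with a median of 14.2. The highest ratio of each stage was in E13 replicate 5, E14 replicate 4 (on 6 regulator counts) and E16 replicate 3 (on 23 regulator counts). The stages overlapped, and since this ratio is a score over chosen genes it was not tested.

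**Figure D4:**
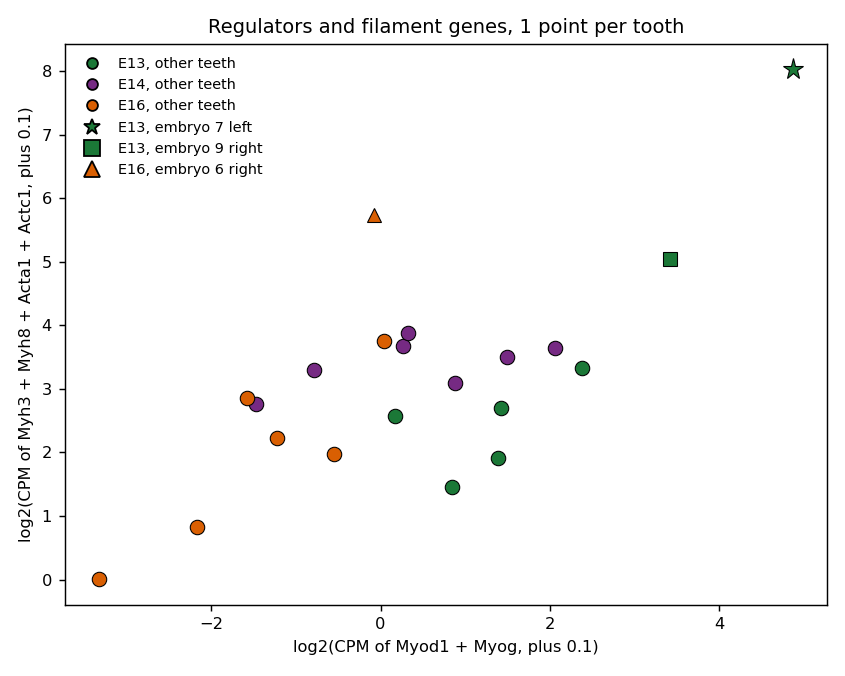
Summed CPM of the filament genes Myh3, Myh8, Acta1 and Actc1 against that of the regulators Myod1 and Myog, both as log2 with 0.1 CPM added, 1 point per tooth. E13 replicate 5 (star) is highest on both axes, and E16 replicate 3 (triangle) has 53.1 CPM of filament genes at a regulator level of 0.849 CPM.

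The stages were then compared gene by gene in 1 edgeR fit over all 21 teeth, with p-values adjusted over the 19101 genes that passed the filter. Ckm did not pass it. Between E13 and E14 (bud to cap), Myog (log2 fold change -2.88 ± 0.717, SE, adjusted p = 0.00575), Ttn (-2.33 ± 0.660, adjusted p = 0.0138) and Actc1 (-2.29 ± 0.691, adjusted p = 0.0206) were lower at E14 and no member was higher. These were 3 of 9 members, where 19.7% of all genes were called and 8.47% were called as lower. Without E13 replicate 5 only Myog remained (-1.79 ± 0.617, adjusted p = 0.0462), 1 of 9 where 17.7% of all genes were called and 7.51% called as lower. Ttn was then at -0.61 ± 0.373 (adjusted p = 0.278) and Actc1 at -0.90 ± 0.523 (adjusted p = 0.253). The median log2 fold change of the 9 members went from -1.74 to -0.27, while that of all genes was -0.01 in either fit.

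For the myosins and Acta1 that tooth set the sign. Myh3 was at -2.16 ± 0.971 between E13 and E14 with it (adjusted p = 0.123) and at 0.47 ± 0.747 without it (adjusted p = 0.721). Myh8 was at -1.74 ± 0.984 (adjusted p = 0.227) and 1.34 ± 0.768 (adjusted p = 0.247), and Acta1 at -1.74 ± 0.914 (adjusted p = 0.193) and 0.26 ± 0.791 (adjusted p = 0.864). Leaving out E14 replicate 3 instead, the highest E14 tooth for Myod1 and Des, brought Myod1 (-2.18, adjusted p = 0.0345) and Des (-1.46, adjusted p = 0.0266) below the threshold, and gave 5 members as lower. Over the fits that left out 1 tooth, between 3077 and 5855 of all genes were called in either direction for E14 against E13.

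Between E13 and E16 (bud to bell), 5 of 9 members were lower, where 41.3% of all genes were called and 19.6% called as lower. Myog was at -4.10 ± 0.789 (adjusted p = 0.000170), Myod1 at -3.97 ± 0.793 (adjusted p = 0.000252) and Actc1 at -3.16 ± 0.729 (adjusted p = 0.00111). On leaving out E13 replicate 5 these 3 were still lower, by log2 fold changes of -3.01 ± 0.668 (adjusted p = 0.000895), -3.16 ± 0.734 (adjusted p = 0.00136) and -1.76 ± 0.540 (adjusted p = 0.0119), 3 of 9 where 38.4% of all genes were called and 17.1% called as lower. Des and Ttn did not hold. Des went from -1.63 ± 0.474 (adjusted p = 0.00744) to -0.88 ± 0.376 (adjusted p = 0.0692), and Ttn from -1.93 ± 0.649 (adjusted p = 0.0193) to -0.20 ± 0.372 (adjusted p = 0.716). Myh3 and Myh8 again changed sign, from -1.73 ± 0.949 to 0.90 ± 0.745 and from -1.35 ± 0.963 to 1.73 ± 0.766, with no call in either fit. Leaving out E16 replicate 3 in place of E13 replicate 5 gave 8 of 9 members as lower at E16, Myh3 at -2.97 (adjusted p = 0.0206), Myh8 at -2.95 (adjusted p = 0.0224) and Acta1 at -2.45 (adjusted p = 0.0435) among them. Over the fits that left out 1 tooth, between 7227 and 9366 of all genes were called in either direction for E16 against E13. The share called as lower without E16 replicate 3 is not given here, so the 8 of 9 is a description only. Without both teeth 3 members were lower, where 35.8% of all genes were called in either direction.

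Between E14 and E16 (cap to bell), Myod1 was the only member called, lower at E16 by a log2 fold change of -2.27 ± 0.801 (adjusted p = 0.0354), 1 of 9 where 28.1% of all genes were called and 13.1% called as lower. Leaving out E13 replicate 5 kept this call (adjusted p = 0.0213, 26.9% of all genes called). It had 0 to 14 counts per tooth at E16. The adjusted p lay close to the threshold. It passed above it on leaving out E14 replicate 3 (adjusted p = 0.109), 5 (0.0547) or 7 (0.0740), or E16 replicate 5 (0.0651), 6 (0.0694) or 7 (0.0654), and on summing the teeth of 1 embryo (adjusted p = 0.0853). The log2 fold change changed less, to -1.78 without E14 replicate 3, between -2.23 and -2.05 without the other 5 teeth, and to -2.27 with the teeth of 1 embryo summed. Without E13 replicate 5 and E16 replicate 3, Actc1 was lower as well (-1.47, adjusted p = 0.0365), 2 of 9 where 25.4% of all genes were called in either direction. Between E13 and E14 Myog alone was then lower, 1 of 9 where 17.8% were called in either direction. Without E16 replicate 3 the differences of Acta1, Myh3, Myh8 and Tnnt3 between E14 and E16 turned from above 0 to -0.71, -0.81, -1.21 and -0.06.

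**Figure D5:**
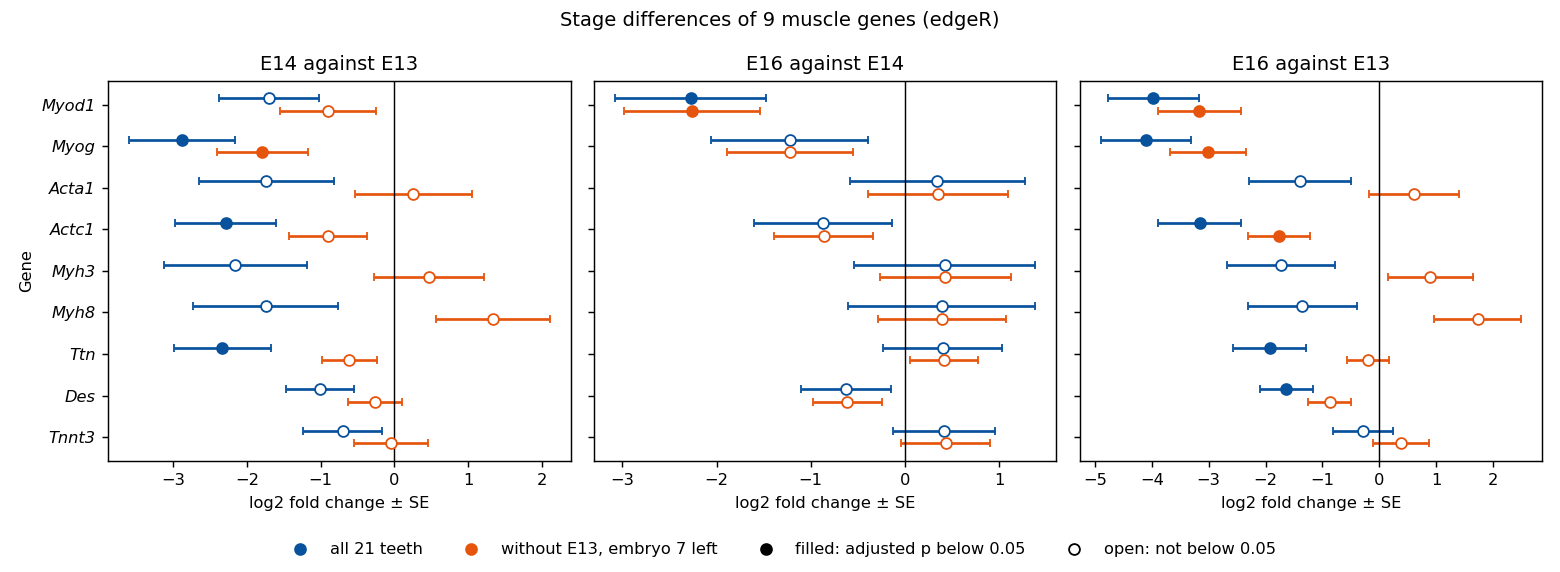
Log2 fold change ± SE of 9 muscle genes between stages (first stage named against the second) from edgeR, with all 21 teeth (blue) and without E13 replicate 5 (orange), where filled points have an adjusted p below 0.05. In the comparisons with E13 the orange points lie to the right of the blue ones for all 9 genes, and Myog is filled in both fits.

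The calls on the wider list of muscle genes also depended on E13 replicate 5. With all teeth, 10 of its 57 tested genes were lower and 5 higher at E14 than at E13, 20 lower and 7 higher at E16 than at E13, and 5 lower and 7 higher at E16 than at E14. These 15, 27 and 12 of 57 genes were near the shares of all genes called, 19.7%, 41.3% and 28.1%, and are no result about the list. With that tooth (E13 replicate 5) left out, 58 were tested, and the counts for E14 against E13 were 4 lower and 8 higher, for E16 against E13 10 lower and 14 higher, and for E16 against E14 5 lower and 9 higher, where 17.7%, 38.4% and 26.9% of all genes were called. Without that tooth, 7.51% and 17.1% of all genes were called as lower for E14 and E16 against E13. On leaving it out, the median log2 fold change of the wider list turned from -0.47 to 0.09 between E13 and E14, and from -0.47 to 0.22 between E13 and E16.

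Single genes of the list are given next, beginning with the myogenic regulators, of which 6 were tested. Pax3, which marks muscle progenitors but also neural crest, fell from 7.85 ± 5.59 CPM at E13 to 0.224 ± 0.114 at E14 (SD, n = 7), by 5.10 on the log2 scale in the edgeR fit (adjusted p = 3.44e-07). Pax7 was lower at E14 than at E13 by a log2 fold change of -3.57 (adjusted p = 0.00156), and Cdh15, a cadherin of myoblasts, by -2.08 (adjusted p = 0.0161). On leaving out E13 replicate 5, Pax3 (-4.72, adjusted p = 6.80e-07) and Pax7 (-2.58, adjusted p = 0.00996) were still lower at E14, and Cdh15 was not called (-1.27, adjusted p = 0.105). Pax7 was also lower at E16 than at E13 (-4.78, adjusted p = 7.24e-05). Pax3 was lower at E16 than at E13 (-3.33, adjusted p = 4.43e-06) but higher at E16 than at E14 (1.77, adjusted p = 0.0274), with E16 teeth between 0.222 and 1.71 CPM. Msc, a repressor of myogenic factors, was higher at E16 than at E14 as well (1.52, adjusted p = 0.0208). Of the 6 tested genes on the list of myogenic regulators, 2 were higher and 2 lower in that comparison. Among all genes 28.1% were called there and 13.1% called as lower. With E13 replicate 5 left out, Msc was also higher at E16 than at E13 (1.62, adjusted p = 0.00492). Of the higher genes, 4 were called in all 3 comparisons with and without that tooth. Dmd, dystrophin, rose from 33.9 ± 2.77 CPM at E13 to 88.7 ± 11.1 CPM at E16, Cmya5 from 13.6 ± 3.57 to 49.6 ± 4.29 CPM, Popdc3 from 0.284 ± 0.175 to 4.70 ± 0.788 CPM, and Tpm1 from 335 ± 22.3 to 622 ± 71.6 CPM. In E13 replicate 5 all 4 were within the range of the other E13 teeth (Cmya5 at 13.3 CPM, Popdc3 at 0.123 CPM). In E16 replicate 3, Cmya5 (57.8 CPM against at most 50.5) and Popdc3 (6.06 against at most 5.16) were above the other E16 teeth, and Dmd and Tpm1 were not. Of the troponins, 3 of 6 were lower at E16 than at E13 with all teeth (Tnnc1, Tnnt1 and Tnni1), where 19.6% of all genes were called as lower. Without E13 replicate 5 none of the 6 was lower, and 2 of the 6, Tnni2 and Tnnt2, were higher, where 38.4% of all genes were called in either direction.

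E15 was covered by the second table, of whole-number counts from Salmon over 14185 genes, with 6 E15 teeth beside the 7 E13 and 7 E16 teeth. The E15 teeth are labelled in another way than the rest, and whether their libraries were made together with those is not given here. In the comparisons with E15, stage and set of libraries therefore cannot be told apart. For the genes other than Tnnt3 and Myh8 the tables gave nearly the same counts in the 14 shared teeth. Their totals were 0.953 (Des) to 1.02 (Ckm) times those of the first table. Tnnt3 had a total of 0.808 times that of the first table, with differences of -22 to -2 counts per tooth. Myh8 differed most. Myh8 had 132 to 1279 counts in the second table where the first had 0 to 1016, an excess of 132 to 316 counts per tooth, so that its values there are not comparable with those above. At E15, Myod1 was at 0 to 3.44 CPM with a median of 0.492, Myog at 0.284 to 2.37 (median 1.02), Actc1 at 1.23 to 10.6 (median 3.37), Myh3 at 2.28 to 11.8 (median 6.92), Ttn at 24.0 to 81.9 (median 43.5) and Acta1 at 0 to 1.85 CPM (median 0.387). No E15 tooth reached the Myh3 level of E13 replicate 5 (163.9 CPM) or E16 replicate 3 (37.9 CPM) in this table. The genes did not always go together within a tooth. E15 replicate 4 (left tooth of embryo 5) had the highest Myh3 and Myog of its stage, and 0 counts of Myod1 and Acta1 and 1 of Tnnt3.

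In that table Ttn was the only member lower at E15 than at E13 (log2 fold change -2.14 ± 0.727, adjusted p = 0.0315), 1 of 9 where 26.8% of all genes were called and 8.49% called as lower. It was not called without E13 replicate 5 (-0.42, adjusted p = 0.501), where 24.2% of all genes were. Leaving out E15 replicate 1, 2 or 6 left the log2 fold change at -2.004, -2.12 and -2.11, with an adjusted p of 0.0599, 0.0527 and 0.0617. Between E15 and E16 edgeR called 0 of 9 members where 6.33% of all genes were called. Myod1 was at -1.92 ± 0.878 (adjusted p = 0.252) and Myog at -2.20 ± 0.893 (adjusted p = 0.178).

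To see which other genes followed the 10, the mean of the 9 tested members was correlated with every other tested gene over the 21 teeth, after the stage mean was taken from each. The 10 most alike were Tnni1 (r = 0.915), Neb, Myl1, Tnnt1, Actn2, Atp2a1, Chrnb1, Gm28653, Vgll2 and Mylpf (r = 0.782). Of the 50 most alike, 21 (42%) were on the wider muscle list, which made up 0.299% of the genes. E13 replicate 5 carried much of this. Without it, Tnni1 (r = 0.817), Neb and Myl1 still led, but 6 of the 50 (12%) were on the list. Among the members themselves, Ttn and Actc1 were the closest pair (r = 0.953 over 21 teeth, 0.943 over the 20 without E13 replicate 5). Des and Tnnt3 were the least alike, with r = 0.06 and -0.35. These correlations share libraries and depth and are given as a description.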

How the data were processed

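Counts were analysed as deposited. The authors aligned the reads with STAR to GRCm38 (Ensembl annotation) and counted reads per gene with HTSeq, and the second table holds estimated counts that the authors made with Salmon for 14185 genes, deposited as whole numbers. The strand setting of the counting is not given in the sources used here, and Ckm, Des and Ttn share exon bases with antisense genes. Of 7 labelled E15 teeth, 1 is not analysed here. Stages were compared with the quasi-likelihood test of edgeR 4.0.16 in R 4.3.3 (TMM, filterByExpr, all stages in 1 fit), with Benjamini-Hochberg adjustment over all genes and a threshold of 0.05, and the code was tested on simulated data. DESeq2 1.42.0, other scalings and filters, summed or single teeth per embryo, an embryo block and leaving out each tooth were tried. Each tooth counts as a replicate, some from 1 embryo, and p-values measure the spread between teeth. Correlations used log2 CPM with a prior count of 2. The genes named are the 10 muscle genes, the highest or repeatedly called genes of the lists, and the genes most alike, beside those said to be chosen after their values were seen. The muscle genes and lists were chosen with earlier results of these data known. A list of dental epithelium markers is not reported here.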

Additional observations from a re-analysis of the deposited data

Results flagged for a closer look

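The levels of the muscle genes in each stage were examined for a tooth whose gap to its nearest neighbour was large beside the range of the stage (Dixon's test), in 43 groups of teeth. For normally distributed values chance flags about 1 in 20. CPM values with low or 0 counts are skewed, so that this rate need not hold here. In 21 groups the highest tooth stood apart, and 11 of these were E13 replicate 5. There Ttn had 953.6 CPM, Myh3 139.5, Actc1 61.6, Myh8 41.6, Des 19.4, Acta1 17.4, Myog 16.2, Myod1 12.98, Tnnt3 4.79 and Ckm 0.123 CPM (3 counts, with 0 in the other E13 teeth), and their sum was 1267 CPM. A further 8 groups were E16 replicate 3, with Ttn at 102.8 CPM, Myh3 at 30.8, Myh8 at 12.9, Acta1 at 4.95, Actc1 at 4.39, Tnnt3 at 3.40 and Ckm at 1.37 CPM and their sum at 164 CPM. Myod1, Myog and Des of that tooth did not stand apart. The remaining flags were Des in E14 replicate 3 (7.35 CPM) and Ckm in E15 replicate 6 of the second table (0.379 CPM, 8 counts). The groups are not independent, since the genes share their libraries.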

How the results depend on the processing

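Leaving out 1 tooth at a time, the muscle genes called numbered 1 to 5 for E14 against E13, 0 to 1 for E16 against E14, 3 to 8 for E16 against E13, 0 to 4 for E15 against E13 and 0 to 0 for E16 against E15. The wider list gave 12 to 20, 10 to 14, 24 to 29, 13 to 19 and 2 to 5, and all genes 3077 to 5855, 4836 to 6605, 7227 to 9366, 3028 to 4691 and 671 to 1382. Signs turned for genes that were not called, on leaving out E13 replicate 5 (E14, E15 and E16 against E13) or E16 replicate 3 (E16 against E14 and E15). For E14 against E13 the log2 fold changes ran over Acta1 -1.99 to 0.26, Myh3 -2.38 to 0.47 and Myh8 -1.97 to 1.34. For E16 against E14 the log2 fold changes ran over Acta1 -0.71 to 0.61, Myh3 -0.81 to 0.65, Myh8 -1.21 to 0.60 and Tnnt3 -0.065 to 0.76. For E16 against E13 the log2 fold changes ran over Acta1 -2.45 to 0.61, Myh3 -2.97 to 0.90, Myh8 -2.95 to 1.73 and Tnnt3 -0.77 to 0.38. For E15 against E13 the log2 fold changes ran over Myh3 -2.22 to 0.65, Myh8 -0.77 to 0.08 and Tnnt3 -0.99 to 0.23. For E16 against E15 the log2 fold changes ran over Acta1 -0.14 to 1.39, Myh3 -0.91 to 0.56, Ttn -0.034 to 0.47 and Tnnt3 -0.19 to 0.90. Without both teeth (chosen after seeing the data), 1, 2 and 3 muscle genes were called for E14 against E13, E16 against E14 and E16 against E13. Acta1, Myh3 and Myh8 were then 0.26, 0.47 and 1.34 for E14 against E13, and -0.72, -0.82 and -1.21 for E16 against E14, where Tnnt3 was -0.065, and Myh8 was 0.13 for E16 against E13.

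The DESeq2 Wald test replaced the Myh3 count of E13 replicate 5 and the Myh8 counts of both teeth as outliers. It gave Myh3 at 0.47 and Myh8 at 1.23 for E14 against E13, Myh8 at -1.12 for E16 against E14, and Myh3 at 0.88 and Myh8 at 0.11 for E16 against E13. It called 25 genes of the wider list for E14 against E13, and the fit without a filter 24, against 15. Neither fit was limited to the 57 list genes that had passed the filter. Over these settings between 1677 and 5641 of all genes were called for E14 against E13, so that these list counts cannot be compared directly. For E16 against E14, 0 muscle genes were called with the teeth of 1 embryo summed, with 1 tooth per embryo and with only the 2 stages fitted, and the last gave 3 for E16 against E13. The second table called 4889 genes for E16 against E13. Embryo numbers restart at each stage and do not pair the teeth (median r of deviations 0.0357 over 15 same-number pairs, -0.00376 over 132 others). With the number as a replicate block, 0, 1 and 1 muscle genes were called for E14 against E13, E16 against E14 and E16 against E13, with 8 genes of the wider list and 1677 of all genes for the first and 13 and 5210 for the last. Myh3 and Myh8 were 0.42 and 0.54 for E14 against E13 under the block, 0.34 and 0.080 for E16 against E13, and -0.084 and -0.46 for E16 against E14, where Acta1 was -0.070. The highest tooth over the median of the others was 9.76 (E13), 1.26 (E14) and 2.65 (E16) as a mean of log2 values, and without Ttn, Des and Actc1 it was 1.27 (E14) and 10.9 (E16). The cause of these shifts was not tested. Low counts limit Ckm, and Myod1 and Myog at E16.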

Other observations

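Markers of bone stood highest in another tooth than those of muscle. In E14 replicate 7 (left tooth of embryo 8) the summed level of 8 bone genes was 698 CPM against 71.8 to 232.0 CPM in the other E14 teeth, and that of 10 cartilage genes was 206.8 against 102.1 to 177.2 CPM. The 10 muscle genes of that tooth summed to 51.2 CPM, the median of the stage.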
